A study of Mus musculus with 16 samples.

Results

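The 8 genes described here encode phosphodiesterases that break down cyclic AMP (cAMP): Pde2a, Pde3b, Pde4a, Pde4b, Pde4d, Pde7a, Pde7b and Pde8a. They were chosen by name, and all 8 had a row among the 14538 genes of the deposited table for mouse tibialis anterior muscle. This muscle at the front of the shin consists mainly of fast-twitch fibres. Each library came from a different mouse: 5 had received vehicle, 6 recombinant GDF15, and 5 were pair-fed. All were wild-type males on the C57BL/6J background, kept at 29 °C on a NASH diet, high in fat and fructose, from 8 weeks of age, and housed singly for the treatment. GDF15, a hormone that lowers food intake through the receptor GFRAL in the hindbrain, was injected subcutaneously once a day in the morning. The labels list 3 doses (0.3, 1 and 5 nmol/kg) without saying which of them these mice received. The ration of the pair-fed mice was set each day from the measured intake of GDF15-treated mice, so that the comparison of these groups asks what GDF15 changes in muscle beyond a lower intake.

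cAMP is made by adenylyl cyclases when noradrenaline or adrenaline binds β-adrenergic receptors, and it acts through protein kinase A (PKA), the EPAC exchange factors and the Popeye domain proteins. Phosphodiesterases hydrolyse it and so set how high, how long and where in the cell the signal lasts. PDE4 enzymes are cAMP-specific, are the target of rolipram and make up much of the cAMP-hydrolysing activity of skeletal muscle. PDE7 and PDE8 enzymes are also cAMP-specific but are not blocked by rolipram, PDE2A hydrolyses both cAMP and cyclic GMP and is stimulated by cyclic GMP, and PDE3B is inhibited by cyclic GMP and is best known from adipocytes and hepatocytes.

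The values below are normalized counts, that is, read counts scaled to a common library depth, recovered from the log2 values that the authors deposited. The libraries held approximately 9475676 to 15030303 reads (median 13895777 in the vehicle-treated, 12146307 in the GDF15-treated and 14280454 in the pair-fed group). The 8 muscle fibre markers examined were all listed and took 15.45% to 17.3% of the counts of each library. Differences are log2 fold changes of (normalized count + 1), tested with limma over the 11841 genes whose mean reached 10 normalized counts, among them all 8 phosphodiesterases. A gene was called when its Benjamini-Hochberg adjusted p was under 0.1 and its absolute log2 fold change above 0.6, as the study did for this muscle. Each group enters 2 of the 3 comparisons, so the comparisons are not independent of each other.

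None of the 8 genes passed both thresholds in any of the 3 comparisons. By the same rule, 0.279% of all tested genes were called between the GDF15-treated and pair-fed groups, 0.304% between GDF15 and vehicle, and 0.819% between pair-fed and vehicle. With the adjusted p alone, 2 genes passed, both of the PDE4 family. Pde4b was lower in GDF15-treated than in pair-fed mice, and Pde4a was lower in pair-fed than in vehicle-treated mice. These counts of 1 of 8 in each comparison stand beside a background of 2.17% of tested genes for GDF15 against pair-fed and 6.37% for pair-fed against vehicle. Between GDF15 and vehicle 0 of 8 passed, against 0.769% of tested genes. An unadjusted limma p under 0.05 was reached by 3 of the 8 between GDF15 and pair-feeding (13.2% of tested genes), 2 between GDF15 and vehicle (11.0%) and 2 between pair-feeding and vehicle (18.9%).

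**Figure D1:**
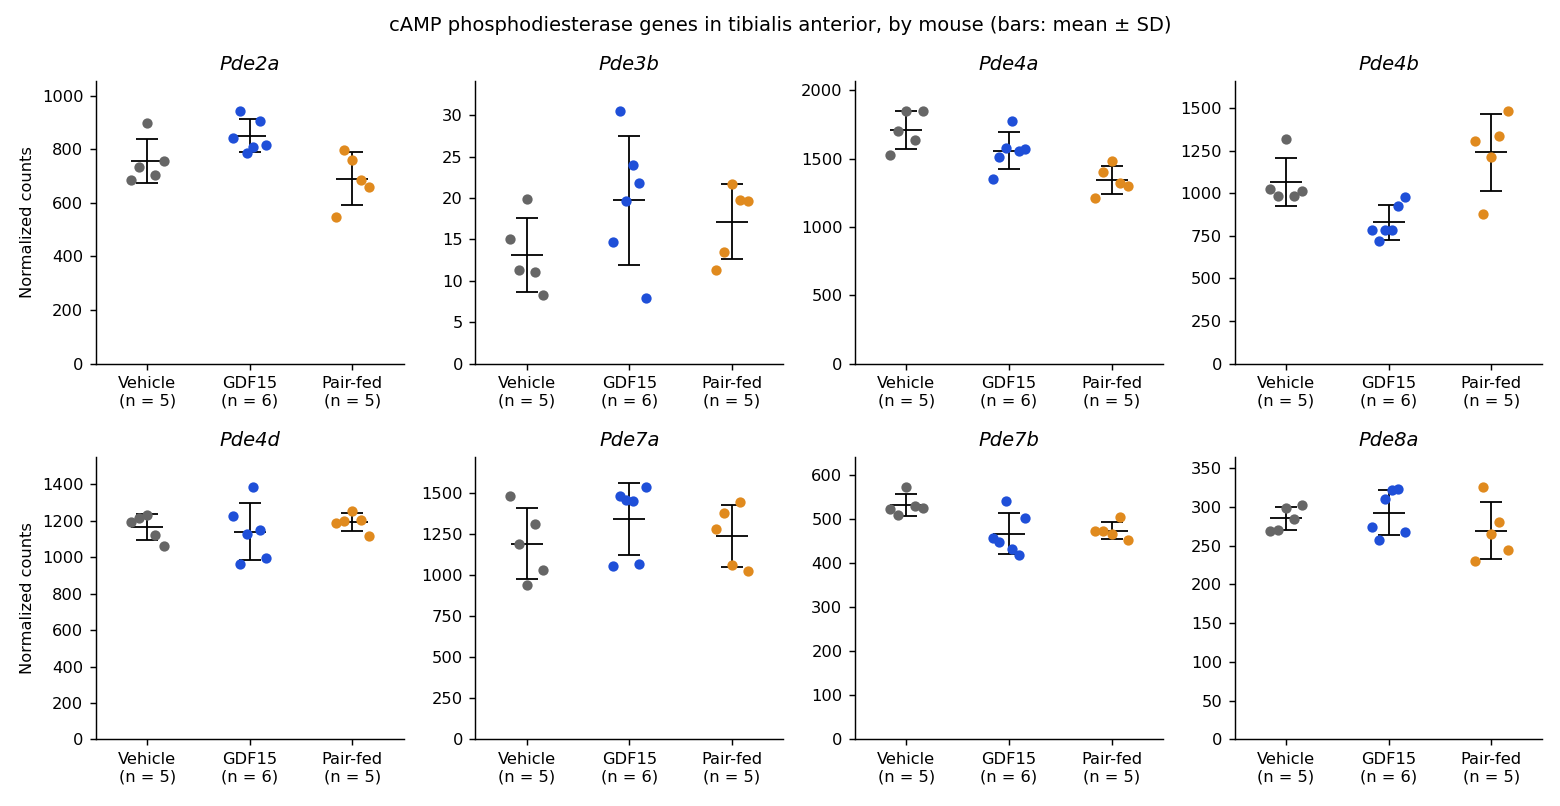
Normalized counts (y axis, from 0) of each phosphodiesterase gene in every mouse of the 3 groups (x axis), 1 point per mouse, with bars for the mean ± SD. Pde4b has its lowest mean in the GDF15-treated and its highest in the pair-fed mice, 1 of which, at 876, lies within the GDF15 range. For Pde4a the 5 pair-fed mice lie below all vehicle-treated mice. The groups overlap in every comparison for Pde2a, Pde3b, Pde4d, Pde7a and Pde8a.

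Pde4a and Pde4b are large genes read from several start sites, which give long and short enzyme forms with different regulatory ends. In the GENCODE vM21 annotation of GRCm38 (mm10), the build named in the submitters' processing notes, Pde4a lies on the plus strand at chr9:21165714-21213248 with 5 transcripts and Pde4b on the plus strand at chr4:102087543-102607259 with 13. The promoter windows of RefSeq (GRCm38.p6; 250 bases before to 50 after a start) were searched for the cAMP response element, the letters bound by CREB, a transcription factor that PKA activates. The full element TGACGTCA was in 0 of 15 windows of 6 of the genes and in 1.79% of all 32851 windows. Its half-site, TGACG or, on the other strand, CGTCA, was in 4 of 15 windows (1 each of Pde2a, Pde4a, Pde4b and Pde8a) and in 20.81% of all windows. Pde3b and Pde7a had no window in the table. Pde4a had 3 windows and Pde4b 4, and which start muscle uses was not tested. The stretches around the half-sites of Pde4a and Pde4b, the genes that passed the adjusted p, are shown 5′ to 3′ on the plus strand with the half-site in capitals. The Pde4a stretch is chr9:21183981-21184075, with the half-site 50 bases before the start at 21184101, and the Pde4b stretch is chr4:102421451-102421545, with the half-site 34 bases before the start at 102421555. These matches describe letters in the windows and show no binding.
Pde4a: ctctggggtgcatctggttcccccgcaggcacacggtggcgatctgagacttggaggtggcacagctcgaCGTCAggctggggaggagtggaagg
Pde4b: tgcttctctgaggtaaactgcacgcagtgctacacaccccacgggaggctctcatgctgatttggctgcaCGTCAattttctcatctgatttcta

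Pde4b, which encodes the PDE4 enzyme best known from leukocytes and brain, had 1026, 986, 1318, 982 and 1013 normalized counts in vehicle-treated mice 1 to 5. The 6 GDF15-treated mice ranged from 717 to 979 with a median of 785. The pair-fed mice, numbered 2 to 6, had 1304, 876, 1214, 1333 and 1480.1. All 6 GDF15-treated mice were thus below the pair-fed median, and 4 of them were below every pair-fed mouse, the overlap coming from pair-fed mouse 3 alone. No gene of the 8 was without overlap in this comparison, against 1.77% of all tested genes. The GDF15 mean was 828.5 ± 100.2 (SD, n = 6) and the pair-fed mean 1241 ± 226 (SD, n = 5). This corresponds to a log2 fold change of −0.57 (SE 0.11, 95% confidence interval −0.81 to −0.33). The limma adjusted p was 0.0302, and an exact two-sided permutation test of the 2 groups gave p = 0.00866 (smallest possible 0.00216). The size of the difference lay just inside 0.6, so the side of that threshold depended on single libraries. It was −0.60 (adjusted p = 0.0321) without GDF15-treated mouse 5, −0.62 (0.0224) without GDF15-treated mouse 6 and −0.69 (0.0011) without pair-fed mouse 3. With approximate depth, which was lowest at the median in the GDF15 group, as a covariate it was −0.64 (0.0456). Over all 31 alternatives it ran from −0.69 to −0.45, with adjusted p-values of 0.0011 to 0.0957. In bulk muscle, fewer cells of a type that expresses a gene and less of its RNA per cell cannot be told apart.

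Against vehicle, all 6 GDF15-treated mice had less Pde4b than the lowest vehicle-treated mouse. The groups therefore did not overlap, which held for 1.65% of all tested genes in this comparison, and Pde4b was the 1 gene of the 8 for which it did. The vehicle mean was 1065 ± 143 (SD, n = 5), and the log2 fold change of −0.36 (SE 0.11, interval −0.60 to −0.12) had a limma adjusted p of 0.230 and did not pass. Pair-fed mice stood at 0.21 above vehicle on the log2 scale (interval −0.04 to 0.46, adjusted p = 0.371). Without pair-fed mouse 3 that difference was 0.33 with an adjusted p of 0.0600, the lowest of a range up to 0.612 over the alternatives. In the vehicle group, mouse 3 lay apart with 1318, while the other vehicle-treated mice lay between 982 and 1026. The same mouse had the highest vehicle value of 6 of the 8 genes (all but Pde7a and Pde8a). Without it, Pde4b stood at −0.28 for GDF15 against vehicle (adjusted p = 0.427) and Pde4a at −0.32 for pair-fed against vehicle (0.0374).

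Because leukocytes express Pde4b strongly, markers of leukocytes were set beside it. All 7 tested leukocyte markers of the 8 listed had a higher mean with GDF15 than with pair-feeding, with a median log2 fold change of 0.42 and 0 of them at an adjusted p under 0.1. Against vehicle 0 passed with GDF15 and 1 with pair-feeding, Ptprc, the pan-leukocyte marker CD45, which was called lower (−0.97, limma adjusted p = 0.0634), while over the 7 markers in that comparison 3 had a higher and 4 a lower mean (median −0.17). Their summed normalized counts were 136 to 260 in vehicle-treated, 123 to 329 in GDF15-treated and 100.4 to 297 in pair-fed mice, and none of the 8 was at 0 in any library. The 5 Schwann cell markers and the 4 fibroblast markers also all had a higher mean with GDF15 than with pair-feeding (medians 0.34 and 0.38). Of them 0 had an adjusted p under 0.1 by limma, beside 2.17% of all tested genes. An unadjusted limma p under 0.05 was reached by 2 and 0 of them, beside 13.2%. Summed, the Schwann cell markers had 602 to 896 normalized counts in vehicle-treated, 718 to 1056 in GDF15-treated and 372 to 1071 in pair-fed mice, and the fibroblast markers 2592 to 5086, 3548 to 5944 and 2616 to 5430 in the same order of groups. The part of these markers in the result was not tested.

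Pde4a had 1522, 1704, 1845, 1633 and 1844 normalized counts in vehicle-treated mice 1 to 5. The pair-fed mice 2 to 6 had 1211, 1400.5, 1482, 1324 and 1298, each below the lowest vehicle-treated mouse. The GDF15-treated mice lay between these groups and overlapped both, from 1350 to 1776 with a median of 1564. Pde4a was lower in pair-fed (1343 ± 103, SD, n = 5) than in vehicle-treated mice (1710 ± 139, SD, n = 5), with a log2 fold change of −0.35 (SE 0.07, interval −0.50 to −0.20), a limma adjusted p of 0.0131 and an exact permutation p of 0.00794, the smallest that 5 against 5 mice allow. Without overlap in this comparison were 2 of the 8 genes, Pde4a and Pde7b, and 5.44% of all tested genes. The difference passed the adjusted p under all 31 alternatives (−0.39 to −0.29, adjusted p 0.0071 to 0.0408) and the threshold of 0.6 under none. In the same comparison 2 of the 8 muscle fibre markers passed the adjusted p, Myh1, a fast myosin heavy chain, called lower (−0.68, limma adjusted p = 0.0123), and Ckm, muscle creatine kinase, higher (0.15, 0.0997), beside 6.37% of all tested genes at an adjusted p under 0.1 and 0.819% called. Over the 8 fibre markers 6 had a higher and 2 a lower mean (median 0.13). Of the 8 smooth muscle and pericyte markers 1 passed, Cnn1, calponin, called lower (−1.47, 0.0523) at a mean of only 21.8 normalized counts. The summed counts of the 8 were 11339 to 12508 in vehicle-treated and 10855 to 11489 in pair-fed mice, and 1 of the 8 had a higher and 7 a lower mean (median −0.12). Of the 8 endothelial markers 7 had a lower mean, 1 with an adjusted p under 0.1 and 5 with an unadjusted p under 0.05. Of all tested genes, 6.37% and 18.9% passed these thresholds. The 3 red blood cell markers with a row, of 5 listed, summed to 260 to 3146 normalized counts in vehicle-treated mice (median 419), 838 to 2556 in GDF15-treated mice (median 1846) and 79.9 to 3743 in pair-fed mice (median 2009), and in no comparison did any of the 3 reach an unadjusted limma p under 0.05. Alas2 was at 0 in at least 1 pair-fed library. The 5 Schwann cell markers all had a lower mean in pair-fed than in vehicle-treated mice (median −0.27), 0 of them at an unadjusted limma p under 0.05. Of the 4 fibroblast markers 3 had a lower and 1 a higher mean (median −0.13). The part of all these markers in the values of Pde4a was not tested.

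GDF15-treated mice stood at 0.21 above pair-fed mice for Pde4a on the log2 scale (SE 0.07, interval 0.07 to 0.35), and 5 of the 6 were above every pair-fed mouse. The limma adjusted p was 0.158 and did not pass. Leaving out GDF15-treated mouse 1, the lowest of its group, gave 0.25 and an adjusted p of 0.0610. With the mouse number as a replicate block the adjusted p was 0.0577, the lowest of a range up to 0.386 over the alternatives. Against vehicle the fold change was −0.13 (interval −0.28 to 0.01, adjusted p = 0.478).

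Pde4d, the third PDE4 gene of the group, encodes enzymes that β-arrestin can bring to β-adrenergic receptors. It is spread over chr13:108449948-109953461 with 20 annotated transcripts. Its counts were 1194, 1218, 1232, 1122 and 1063 in vehicle-treated mice, 962 to 1385 with a median of 1136 in GDF15-treated mice, and 1188, 1200.3, 1252, 1204 and 1117 in pair-fed mice. The 3 groups overlapped, with fold changes of −0.07 (interval −0.23 to 0.08) between GDF15 and pair-feeding, −0.04 (−0.20 to 0.12) between GDF15 and vehicle and 0.03 (−0.13 to 0.20) between pair-feeding and vehicle. The intervals leave out a change as large as that of Pde4b between the GDF15-treated and pair-fed groups, but they do not show that Pde4d was the same in all groups.

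Because Pde4b and Pde4a differed in different comparisons, their ratio within each mouse was set out as a description. The log2 ratio of Pde4b to Pde4a was −0.69 ± 0.16 (SD, n = 5) in vehicle-treated mice, −0.91 ± 0.20 (SD, n = 6) in GDF15-treated mice and −0.13 ± 0.35 (SD, n = 5) in pair-fed mice. Pair-fed mice 2, 5 and 6 had more counts of Pde4b than of Pde4a (0.11, 0.01 and 0.19), which no other mouse did. The highest GDF15-treated mouse (−0.6812) and the lowest pair-fed mouse (−0.6769) nearly touched. A count ratio of 2 genes of different length compares mice and not the level of one gene with the other.

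**Figure D2:**
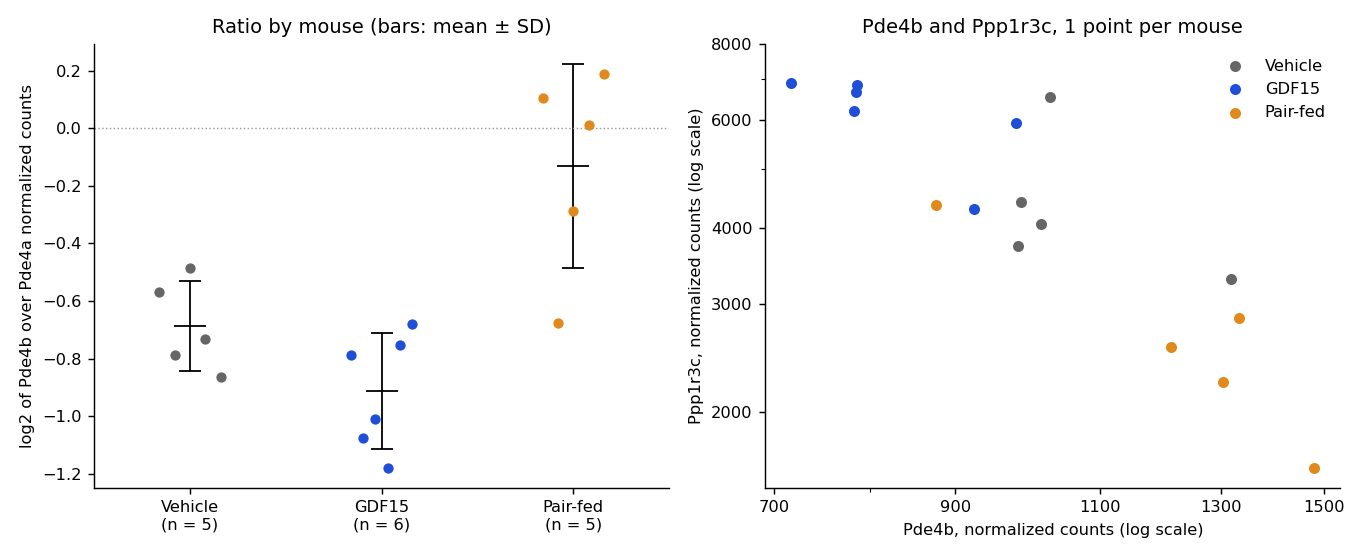
Left, log2 ratio of Pde4b to Pde4a normalized counts in each mouse by group, with bars for the mean ± SD. Right, normalized counts of Pde4b (x axis, log scale) and Ppp1r3c (y axis, log scale), 1 point per mouse. The 6 GDF15-treated mice have ratios of −1.18 to −0.68 and the pair-fed mice −0.68 to 0.19. Ppp1r3c is shown as the gene with the lowest correlation to Pde4b among 11840, so its inverse course follows from that choice.

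Pde7a and Pde7b encode cAMP-specific enzymes insensitive to rolipram. Pde7a, on the minus strand of chromosome 3 at 19223108 to 19311322, had 1479, 1189.6, 939.6, 1312 and 1029 normalized counts in vehicle-treated mice, 1052 to 1534 with a median of 1452 in GDF15-treated mice, and 1279, 1377, 1063, 1441 and 1022 in pair-fed mice. The SD within each group was larger than the distance between any 2 group means, and the fold changes were 0.11 between GDF15 and pair-feeding, 0.17 between GDF15 and vehicle and 0.06 between pair-feeding and vehicle (adjusted p = 0.759, 0.685 and 0.863 by limma). Within groups Pde7a had an SD of 0.25 on the log2 scale, against a median of 0.17 over all tested genes. On the other strand, 48 of its exon bases overlap Gm16093, and whether counting used the strand is not given in the sources used here.

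Pde7b, on the minus strand of chromosome 10 at 20398004 to 20725078, was the least variable of the 8 genes, with a within-group SD of 0.10. The vehicle-treated mice had 523, 509, 573, 530.3 and 526, the GDF15-treated mice 418 to 542 with a median of 452, and the pair-fed mice 473, 473, 466, 504 and 452. All 5 pair-fed mice were below every vehicle-treated mouse, and so were 5 of the 6 GDF15-treated mice. The fold changes were −0.17 (interval −0.31 to −0.03, adjusted p = 0.170) for pair-fed and −0.19 (−0.32 to −0.06, adjusted p = 0.233) for GDF15 against vehicle, and neither passed. Without GDF15-treated mouse 3, the 1 mouse that overlapped, the difference of GDF15 from vehicle was −0.24 with an adjusted p of 0.0978, the lowest of a range up to 0.418. GDF15-treated and pair-fed mice differed by −0.03 (interval −0.16 to 0.11).

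Pde8a encodes a cAMP-specific enzyme of very high affinity, and its gene lies at chr7:81213596-81334533 on the plus strand. It had 269, 271, 298, 284 and 303 normalized counts in vehicle-treated mice, 258 to 324 with a median of 292 in GDF15-treated mice, and 231, 326, 265, 281 and 244 in pair-fed mice. The lowest and the highest pair-fed mouse enclosed all other mice. The fold changes were 0.12 (interval −0.06 to 0.31), 0.03 (−0.15 to 0.22) and −0.09 (−0.28 to 0.10) (GDF15 minus pair-fed, GDF15 minus vehicle and pair-fed minus vehicle), with limma adjusted p-values of 0.578, 0.931 and 0.648.

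Pde2a encodes the enzyme through which cyclic GMP speeds the breakdown of cAMP, and its gene lies at chr7:101421691-101512827 on the plus strand. The vehicle-treated mice had 686, 735, 898, 705 and 756 normalized counts and the pair-fed mice 546, 798, 760.3, 686 and 660.3. The GDF15-treated mice ranged from 787 to 941 with a median of 829.6. Of these 6 mice, 5 were above every pair-fed mouse and all 6 were above the pair-fed median. The means of 851 ± 60.8 (SD, n = 6) for GDF15 and 690.2 ± 97.8 (SD, n = 5) for the pair-fed group gave a log2 fold change of 0.31 (SE 0.09, interval 0.13 to 0.49). The limma adjusted p of 0.102 fell just outside the threshold. It was 0.0831 without vehicle-treated mouse 3, 0.0458 without pair-fed mouse 3 (fold change 0.37) and 0.0994 without pair-fed mouse 4 (0.35), in a range of 0.0458 to 0.232 over the alternatives. Against vehicle the fold changes were 0.17 for GDF15 (adjusted p = 0.482) and −0.14 for pair-feeding (adjusted p = 0.449).

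Endothelial cells are a known site of Pde2a. All 8 endothelial markers were tested, and their summed counts were 5627 to 6664 in vehicle-treated, 4791 to 5962 in GDF15-treated and 4980.1 to 5901 in pair-fed mice, with none at 0 in any library. Between GDF15 and pair-feeding, where Pde2a came nearest to the threshold, 5 of the 8 had a higher and 3 a lower mean, with a median log2 fold change of 0.01. Against vehicle, 8 of 8 had a lower mean with GDF15 (median −0.15) and 7 of 8 with pair-feeding (median −0.16). Of these, 1 passed the adjusted p in each comparison, beside 0.769% of all tested genes with GDF15 (0.304% called) and 6.37% with pair-feeding. This was Kdr, a VEGF receptor, at −0.66 with GDF15 (limma adjusted p = 0.0012, called) and −0.50 with pair-feeding (0.0047), and the other 7 did not pass. The part of the endothelial markers in the values of Pde2a was not tested. The annotation also places 3955 of the 6149 exon bases of Pde2a in Gm45837, a gene on the same strand that has no row in the table, so reads of the pair could not be separated.

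Pde3b, at chr7:114415281-114539251 on the plus strand, was close to the detection limit of these libraries. It had 15.0, 11.3, 19.9, 11.0 and 8.33 normalized counts in vehicle-treated mice, 7.88 to 30.5 with a median of 20.7 in GDF15-treated mice, and 11.3, 13.5, 21.6, 19.7 and 19.6 in pair-fed mice. This was approximately 7.0 to 32.1 reads per library, and the within-group SD of 0.51 exceeded that of 92.5% of tested genes. The fold change of 0.51 between GDF15 and vehicle had an interval of −0.14 to 1.15 (adjusted p = 0.578 by limma), so that no difference was detectable at this depth. The values were 0.38 (interval −0.29 to 1.05) for pair-fed against vehicle and 0.13 (−0.52 to 0.77) for GDF15 against pair-fed. Adipocytes are a known site of Pde3b. The summed counts of 7 adipocyte markers ran from 98.2 to 438 in vehicle-treated, 54.6 to 1294 in GDF15-treated and 234 to 675 in pair-fed mice, and all 7 had a higher mean in both other groups than in the vehicle group, none at an adjusted p under 0.1. Their part in the values of Pde3b was not tested.

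**Figure D3:**
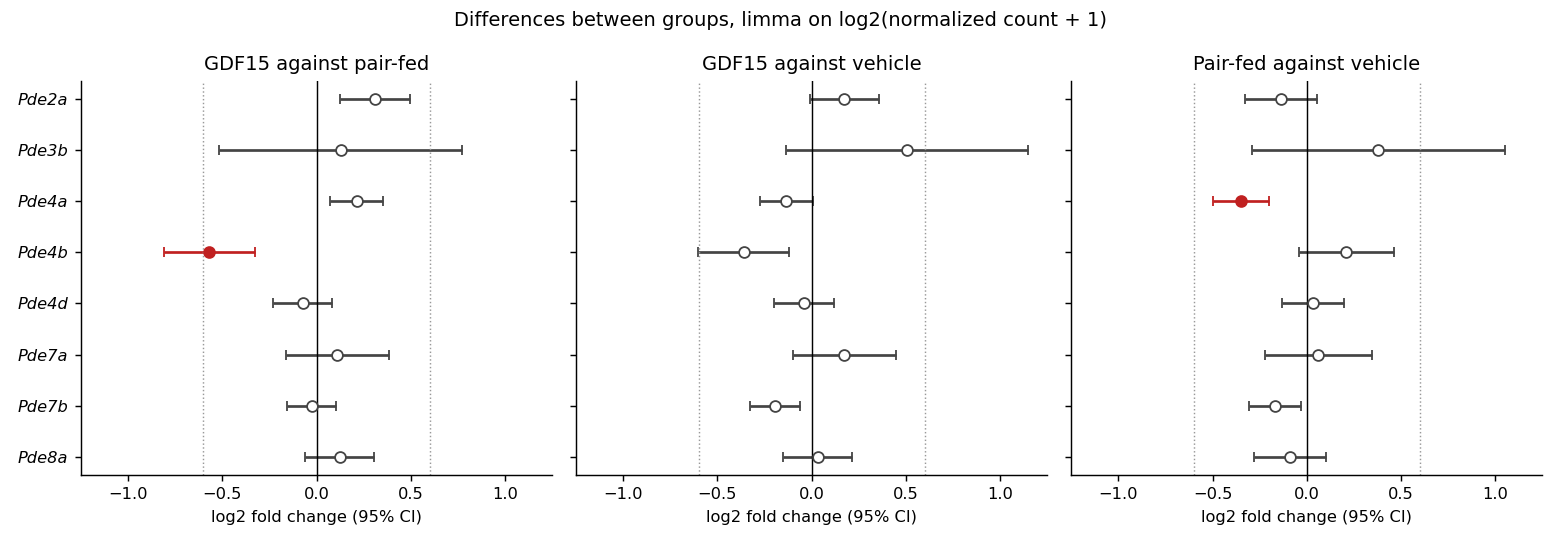
Log2 fold change (x axis) with its 95% confidence interval for each of the 8 genes (y axis) in the 3 comparisons, from limma; filled red points have an adjusted p under 0.1, and dotted lines mark ± 0.6. Filled are Pde4b at −0.57 for GDF15 against pair-fed and Pde4a at −0.35 for pair-fed against vehicle, and the interval of Pde3b is the widest in each panel.

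As a group, the 8 genes did not share a direction. Between GDF15 and pair-feeding 5 had a higher and 3 a lower mean, with a median log2 fold change of 0.12 (0.00 over all tested genes). Both comparisons with vehicle had 4 higher and 4 lower, with medians of 0.00 for GDF15 and −0.03 for pair-feeding. After the group means were subtracted, 14 of the 28 pairs of genes were positively and 14 negatively correlated over the 16 mice (Pearson r −0.38 to 0.59), and 0 pairs had a permutation p under 0.05 after adjustment over the pairs (smallest 0.531). The pair with the highest value was Pde4a and Pde8a (r = 0.59, permutation p = 0.0190; Spearman rho = 0.62, permutation p = 0.0146), and r was 0.55 without the 2 libraries farthest from the median.

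Levels were compared between genes only as normalized counts per kb of annotated exon, averaged over the 16 libraries. Pde4a was the highest with 200.9 ± 25.1 (SD), followed by Pde7a with 163 ± 26.5, Pde2a with 125 ± 16.6, Pde4b with 97.7 ± 21.98, Pde4d with 97.0 ± 8.53, Pde8a with 69.9 ± 7.05, Pde7b with 39.3 ± 3.48 and Pde3b with 1.85 ± 0.684. Ranges over the libraries overlapped between all neighbours in this order except Pde8a and Pde7b, and Pde7b and Pde3b. Pde4b and Pde4d could not be ordered, since Pde4b was above Pde4d in 7 of the 16 libraries. The group means placed Pde4b differently: it stood below Pde4d with GDF15 (78.5 ± 9.49 against 94.96 ± 12.9 per kb, SD, n = 6), while in the pair-fed group (n = 5) its mean of 117.5 ± 21.4 was above those of Pde2a (112 ± 15.9) and Pde4d (99.3 ± 4.06). The order rests on the whole annotated exon length of each gene, and the exons that muscle uses may be fewer.

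The summed level of the 8 genes per kb was 812 ± 25.6 (SD, n = 5) in vehicle-treated, 800.0 ± 41.7 (SD, n = 6) in GDF15-treated and 771 ± 33.7 (SD, n = 5) in pair-fed mice. The 3 PDE4 genes made up 51.8% ± 2.30 of it in vehicle-treated, 47.1% ± 2.15 in GDF15-treated and 51.0% ± 3.28 in pair-fed mice. Within this, the share of Pde4b was 12.4% ± 1.22, 9.82% ± 1.22 and 15.33% ± 3.14, and that of Pde4a 27.5% ± 2.03, 25.4% ± 0.999 and 22.8% ± 1.38, in the same order of groups. These shares restate the counts above and were not tested.

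**Figure D4:**
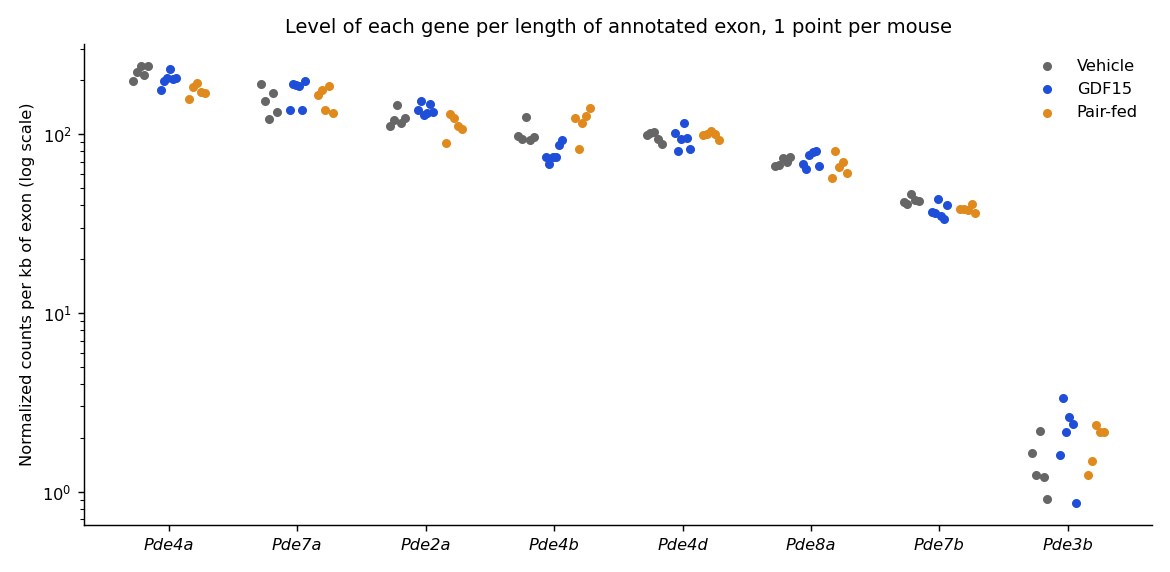
Normalized counts per kb of annotated exon (y axis, log scale) of the 8 genes (x axis, ordered by their mean), 1 point per mouse, coloured by group. Pde4a, Pde7a, Pde2a, Pde4b, Pde4d and Pde8a form a run of overlapping ranges, with Pde7b below them and Pde3b far below at 0.865 to 3.34.

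The other phosphodiesterase genes gave no call. Of 16 listed, 12 had a row and 10 passed the minimum. Pde6a, Pde6b, Pde6c and Pde6h had no row, and Pde11a and Pde6g had a mean below 10. None of the 10 had an adjusted p under 0.1 in any comparison by limma, and 1, 1 and 2 had an unadjusted p under 0.05 in GDF15 against pair-fed, in GDF15 against vehicle and in the pair-fed group against vehicle, beside 13.2%, 11.0% and 18.9% of all tested genes. Pde4c, the fourth gene of the PDE4 family, had 107 to 179 normalized counts in vehicle-treated, 103 to 172 in GDF15-treated and 98.3 to 137 in pair-fed mice, which was 21.3 to 25.2 per kb as group means. Pde3a, the relative of Pde3b, had 47.5 to 95.7 over all mice. Pde8b, the relative of Pde8a, had 27.4 ± 5.03, 19.6 ± 5.58 and 31.5 ± 9.26 in the vehicle-treated, GDF15-treated and pair-fed groups (GDF15 against pair-fed −0.66, adjusted p = 0.200). Pde6d, whose product is a lipid-binding chaperone despite its name, had group means of 268 to 298. The means of Pde1a, Pde1b, Pde1c, Pde5a, Pde9a and Pde10a all lay between 7.31 and 39.2 in each group.

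The rest of the cAMP pathway was examined with lists of genes upstream and downstream of the phosphodiesterases. From receptor to cyclase, 12 of 17 listed genes were tested, 0 were called, and Adcy9, an adenylyl cyclase, had an adjusted p under 0.1 for pair-fed against vehicle (376 ± 43.5 against 491 ± 42.8, log2 fold change −0.39, adjusted p = 0.0249). Of the PKA subunits and inhibitors, 8 of 9 were tested and none had an adjusted p under 0.1 in any comparison, with 0, 0 and 2 at an unadjusted p under 0.05 (13.2%, 11.0% and 18.9% of all tested genes). Among the other cAMP effectors, 7 of 8 were tested. Popdc3, a Popeye domain protein that binds cAMP, was higher with GDF15 than with pair-feeding (571 ± 43.1 against 490.4 ± 25.7, log2 fold change 0.22, adjusted p = 0.0830). Rapgef4, which encodes EPAC2, was called higher in pair-fed than in vehicle-treated mice (43.9 ± 11.6 against 24.5 ± 9.86, log2 fold change 0.86, adjusted p = 0.0806). Popdc3, whose fold change lay inside 0.6 and which was therefore not called, no longer had an adjusted p under 0.1 when any of 9 single libraries was left out (adjusted p 0.0643 to 0.226 over its alternatives). The call of Rapgef4 was lost with any of 7 (0.0434 to 0.190). Of all tested genes, 2.17% had an adjusted p under 0.1 between GDF15 and pair-feeding, 6.37% had one between pair-feeding and vehicle, and 0.819% were called in the latter.

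Of the partners that hold phosphodiesterases in place, 11 of 12 were tested (Rack1 was listed under its former symbol as well and is counted once). Pde4dip, myomegalin, a scaffold that binds PDE4D, had 43370 ± 3215, 42355 ± 950.5 and 46572 ± 1631 normalized counts in the vehicle-treated, GDF15-treated and pair-fed groups. Its log2 fold change for GDF15 against pair-fed was −0.14 and did not pass. Between pair-fed and vehicle-treated mice 3 partners had an adjusted p under 0.1, all lower: Arrb1, β-arrestin 1, which carries PDE4D to receptors (−0.44, adjusted p = 0.0160), Akap1, an anchor at mitochondria (−0.34, 0.0261), and Akap5, an anchor at the plasma membrane (−0.79, 0.0990, called). The background in this comparison was 6.37% of tested genes at an adjusted p under 0.1 and 0.819% called. The call of Akap5, with means of 11.1 and 19.7 normalized counts, was lost when any of 14 single libraries was left out (adjusted p 0.0702 to 0.233 over its alternatives).

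All 16 genes of a list induced by cAMP were tested, with median log2 fold changes of 0.29 between GDF15 and pair-feeding, 0.35 between GDF15 and vehicle and 0.16 between pair-feeding and vehicle, beside 0.00 over all tested genes in each. Called were 1, 2 and 2 of the 16, in the same order, beside 0.279%, 0.304% and 0.819% of all tested genes. Ppp1r3c, which targets a phosphatase to glycogen, was higher with GDF15 than with pair-feeding (6145 ± 980.3 against 2722 ± 1021, log2 fold change 1.23, adjusted p = 0.0081) and lower with pair-feeding than with vehicle (−0.73, 0.0647). Per1, a clock gene that also responds to glucocorticoids and feeding time, was higher than vehicle with GDF15 (1.03, 0.0015) and with pair-feeding (1.46, 2.0e-05). Dusp1, a phosphatase of MAP kinases, was higher with GDF15 than with vehicle (0.86, 0.0744). The calls of Dusp1 and of Ppp1r3c against vehicle were each lost when any of 6 single libraries was left out (adjusted p 0.0257 to 0.168 and 0.0108 to 0.181 over their alternatives), and those of Per1 and of Ppp1r3c between GDF15 and pair-feeding with none.

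For the genes that passed the adjusted p, the tested genes most and least like them over the 16 libraries were found by Pearson's r on log2(normalized count + 1), among 11840 genes. Most like Pde4b were Tmem140 (r = 0.87), Ulk1 (0.84), a kinase that starts autophagy, and Fzd7 (0.84), a Wnt receptor, and the least like it was Ppp1r3c (−0.89). Once the group means were subtracted these values were 0.71, 0.69, 0.55 and −0.75. Most like Pde4a were Mindy2 (0.91), Masp1 (0.90) and Rcan2 (0.89), a regulator of calcineurin, and the least like it was Rtn2 (−0.91), with 0.84, 0.76, 0.80 and −0.76 after the same subtraction. These correlations are over mice of 3 groups that share their treatment, and were taken as the extremes of all genes, so they are given as a description.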

How the data were processed

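The authors made directional libraries from total RNA, sequenced read pairs, trimmed them (Trim Galore), quantified transcripts (Salmon) and scaled genes with DESeq2; the submitters' notes name mm10, and tool versions, annotation and strand setting are not given in the sources used here. The authors deposited log2 values per gene symbol (7.32 to 19.96, 8459 of them at the floor), which have the closed form that DESeq2 gives to variance-stabilized counts. They were transformed back to normalized counts, the unit the tests had been designed for. Of the low values of genes with 1 annotated transcript, 93.7% to 98.1% were then whole multiples of the value of a read (within 0.1 reads), but 19.1% to 27.6% with more than 4 transcripts, so no count test was run. Approximate depth is the summed normalized count divided by the value of a read.

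Groups and mouse numbers come from the titles. Tests were two-sided, with limma 3.58.1 (R 4.3.3; lmFit, contrasts.fit, eBayes with trend) on log2(normalized count + 1), fitted to the 3 groups at once without covariates. Adjustment was over all genes with a mean of 10 or more. The script was tested on simulated data. Other steps used Python 3.11.15. The same mouse number in different groups names different animals. Over 14 same-numbered pairs, deviations from group means correlated at −0.10 to 0.07. These values cannot show whether the ration of a pair-fed mouse followed the GDF15-treated mouse of its number. The main fit used no pairing, and a block for mouse number was an alternative. The genes, lists, tests and thresholds were chosen with earlier results of these data known. Named genes were the 8 phosphodiesterases, other phosphodiesterases with a row, genes of the other lists called in any comparison or at an adjusted p under 0.1 between GDF15 and pair-fed, and the 3 most and the 1 least correlated genes; Adcy9, Arrb1, Akap1, Pde4dip and the markers Kdr, Ptprc, Myh1, Ckm and Cnn1 were named after their values were seen. Alternatives were other pseudocounts, minima, scalings and thresholds, no trend, weighted libraries, fits restricted to a pair of groups, a block for mouse number, depth as a covariate, the values as deposited, and each library left out.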

Additional observations from a re-analysis of the deposited data

Results flagged for a closer look

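Pde4b in vehicle-treated mouse 3 stood at 1318 normalized counts, while the other 4 vehicle-treated mice lay between 982 and 1026. Its gap to the nearest of the others was 0.869 of the range of the group, above Dixon's 95% critical value for 5 samples. It was the 1 value so marked in 24 groups of mice checked (8 genes in 3 groups), where chance marks about 1 in 20. The same mouse had the highest vehicle value of Pde2a, Pde3b, Pde4a, Pde4d and Pde7b as well, with gaps of 0.671 of the range for Pde2a and 0.665 for Pde7b, short of the critical value. Leaving it out moved no fold change of the 8 genes against vehicle across the adjusted p threshold, but it brought Pde2a between GDF15 and pair-feeding past it (0.31, adjusted p 0.102 with and 0.0831 without the mouse), and the fold change of Pde7a for pair-fed against vehicle changed sign (−0.019). Without this mouse, Pde4b differed between GDF15 and pair-feeding by −0.57 with an adjusted p of 0.0197 by limma, and over its 31 alternatives the adjusted p ran from 0.0011 to 0.0957.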

How the results depend on the processing

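Over the 24 fold changes (8 genes in 3 comparisons) and 741 alternatives, 725 kept both the direction and the side of the adjusted p threshold, 8 passed it that had not, 0 lost it and 8 reversed. With approximate depth as a covariate, Pde3b (−0.059) and Pde7a (−0.027) reversed between GDF15 and pair-fed, and Pde8a (−0.0064) between GDF15 and vehicle; with single libraries left out, the ranges that crossed 0 were −0.014 to 0.35 for Pde3b and −0.070 to 0.0046 for Pde7b (GDF15 against pair-fed), −0.099 to 0.0062 for Pde4d (GDF15 against vehicle) and −0.019 to 0.14 for Pde7a (pair-fed against vehicle). None of these passed a test in either form. Pde3b could not be tested with a minimum mean of 50. The number of the 8 genes past both thresholds, 0 in each comparison, became 1 with depth as a covariate (Pde4b, −0.64, adjusted p = 0.0456, in a range of 0.0011 to 0.0957) or with no fold change threshold between GDF15 and pair-fed, and 1 (Pde4a) with no fold change threshold between pair-fed and vehicle; leaving out single libraries gave 0 to 1 between GDF15 and pair-fed. The number at an adjusted p under 0.1 alone, 1 between GDF15 and pair-fed, was 2 with a minimum mean of 50 (with Pde2a), and 1 to 2 with single libraries left out. It ran from 0 to 1 between GDF15 and vehicle and from 1 to 2 between pair-fed and vehicle when single libraries were left out. With the mouse number as a replicate block it was 2 between GDF15 and pair-fed, with Pde4a at 0.25 and an adjusted p of 0.0577 (0.0577 to 0.386 over its alternatives); the block changed no other call of the 8 genes. Of the 14 same-numbered pairs, 2 libraries correlated best with their own number. The cause of these shifts was not tested. Depth limits Pde3b most, with approximately 7.0 to 32.1 reads per library.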
